A study of Sorghum bicolor with 9 samples.

Results

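The sorghum genes described here are those that the deposited table assigns to 3 protein family labels: Rhodanese with 18 genes, FKBP_C with 21 and Fer2 with 17, together 56 of 35281 genes. All members of each label were taken. The labels were themselves selected on the fold changes of moderate against control, since an earlier gene set test on these libraries had placed all 3 among the families lower in moderate. Values of moderate against control are therefore given as a description without a test. The fold changes of severe took no part in that choice, but severe is compared below with the same control and moderate libraries that did. The plants were wild type Sorghum bicolor, and their line, BTx623, is the inbred one of the sorghum reference genome. Leaves were taken at the four-leaf-stage from plants in 3 soils, with 3 biological replicates each. The soils were normal (control), moderately saline-alkali with 3‰ salt at pH 8.1 (moderate) and severely saline-alkali with 5‰ salt at pH 8.1 (severe). All plants were of this 1 wild-type line. A second label field writes the salt content in percent where the first has per mille. No salt content or pH is stated for the normal soil.

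The rhodanese domain is the fold of sulfurtransferases, in which a cysteine takes up a sulphur atom from a donor such as thiosulfate or mercaptopyruvate and hands it on. In Arabidopsis, rhodanese-like proteins occur in several compartments, and one thylakoid member anchors ferredoxin-NADP reductase to the membrane. FKBP_C is the catalytic domain of FK506-binding proteins, which speed the turning of peptide bonds next to proline during protein folding. In Arabidopsis a large share of FKBPs sit in the thylakoid lumen, where some take part in the assembly of photosystem complexes, while larger FKBPs of the cytosol and nucleus, some induced by heat, work with the HSP90 chaperone. Fer2 is an iron-sulphur cluster domain. It makes up plant-type ferredoxins, the soluble carriers that take electrons from photosystem I to enzymes such as ferredoxin-NADP reductase and nitrite reductase. The same domain also stands at the start of molybdenum enzymes such as xanthine dehydrogenase and aldehyde oxidase, and aldehyde oxidase carries out the last step of abscisic acid synthesis. The table gives these genes a family label only, with no product name or location in the cell. Which of them are plastid proteins, and which Fer2 genes are ferredoxins or molybdenum enzymes, is therefore not known here, and the members are named by their identifiers.

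Each library held 17792497 to 22449989 reads assigned to genes. Where a library has a count of 0, counting error alone leaves room for 3 counts. On the scaled CPM used for levels (counts scaled to the library total and between libraries) this is 0.1003 to 0.286 CPM, highest in severe replicate 1. Severe replicate 1 stood apart. Its scaling factor was 0.512, against 0.858 and 0.973 for severe replicates 2 and 3, 1.33 to 1.41 in moderate and 0.904 to 1.02 in control, and it lay farthest out on the first principal component, which held 73.9% of the variance. The biological coefficient of variation was 60.8% among severe, 26.3% among moderate and 24.7% among control libraries. Counts below are therefore given with and without severe replicate 1. No gene carried a label or name of the leaf markers looked for (light-harvesting proteins, the Rubisco small subunit, PEP carboxylase), so the leaf label could not be checked. The 8 genes labelled KNOX1 or KNOX2, a family of meristem regulators, summed to 0.286 to 4.56 CPM per library. Levels are CPM scaled between libraries, given for replicates 1 to 3 of each group. A gene was called changed when edgeR's quasi-likelihood test gave an adjusted p under 0.05, with the Benjamini-Hochberg method applied over all 22356 genes tested. Each SE of a log2 change is worked back from that test's p-value. It restates the p-value and does not measure the spread between replicates.

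Of the 56 members, 52 passed the filter on low counts, 15 Rhodanese, 21 FKBP_C and 16 Fer2 genes. The other 4 had few counts. The Rhodanese gene Sobic.004G002600 had 27 counts over the control, 7 over the moderate and 7 over the severe libraries. In the same order of soils, Sobic.006G032700 had 0, 4 and 9 counts, Sobic.010G270200 had 1, 20 and 47, and the Fer2 gene Sobic.003G364400 had 14, 21 and 39. No change was tested for these 4.

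Taken by sum, the 3 families were most abundant in control leaves, and FKBP_C varied least with the soil. All Rhodanese genes together reached 2161, 1823 and 1911 CPM in control, 709, 702 and 867 in moderate, and 864, 775 and 432 in severe. The FKBP_C sum was 1425, 1327 and 1395 CPM in control, 859, 841 and 978 in moderate, and 1348, 977 and 929 in severe. For Fer2 the sums were 3200.2, 2613 and 2589 CPM in control, 1147, 906 and 890.4 in moderate, and 2735, 1947 and 1484 in severe. In each family the moderate libraries lay below all control libraries. Severe Fer2 and FKBP_C sums overlapped with control through severe replicate 1 alone. Severe Rhodanese sums lay below control, and replicates 1 and 2 overlapped with moderate. These overlaps depend on the scaling between libraries. As plain shares of all counts, severe FKBP_C was 0.0689 to 0.0902% and control 0.1287 to 0.1417%. Severe Fer2 was 0.1398 to 0.1669% and control 0.2629 to 0.2891%. Severe Rhodanese was 0.042 to 0.0665% and moderate 0.0951 to 0.1156%. By these shares moderate FKBP_C, 0.1153 to 0.1304%, overlapped with control. Each sum is made of members that changed in opposite directions. Without Sobic.010G270300, the 1 Rhodanese gene that rose, the Rhodanese sums were 2116, 1779 and 1887 CPM in control, 675, 676 and 836 in moderate, and 345, 452 and 304 in severe, and severe then lay below moderate. That gene was left out because it rose, so a lower severe sum was set by the choice and is given as a description. In these bulk leaf samples, fewer cells of a type and less RNA per cell cannot be told apart.

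**Figure D1:**
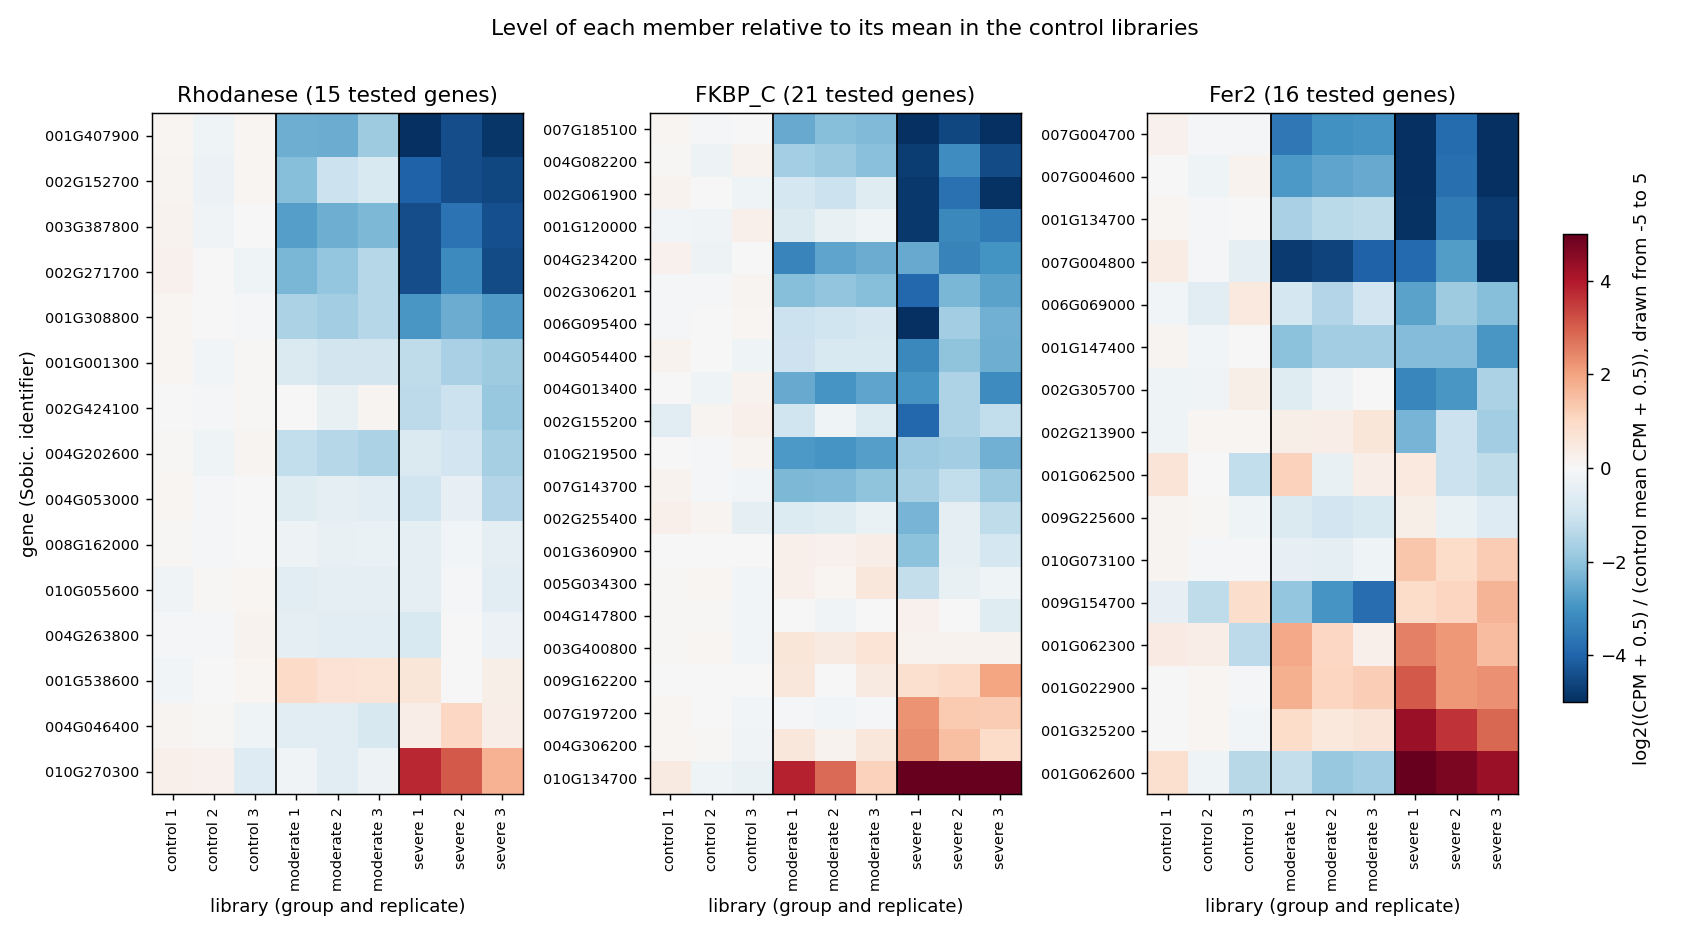
Each row is 1 of the 52 tested genes and each column 1 library, grouped as control, moderate and severe. Colour gives the log2 ratio of the level to the gene's mean in control, after a small constant was added to both, blue for lower and red for higher. Rows run from the largest fall in severe at the top to the largest rise at the bottom, and each label shows both ends.

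Severe stress against control asked which members differed in soil of 5‰ salt. Of 15 Rhodanese genes 9 fell and 1 rose, of 21 FKBP_C genes 14 fell and 4 rose, and of 16 Fer2 genes 8 fell and 5 rose. Over all tested genes 34.9% were lower and 31.6% higher in this comparison. As shares of the tested members, 60.0% of Rhodanese, 66.7% of FKBP_C and 50.0% of Fer2 genes were lower, and 6.67%, 19.0% and 31.2% were higher. The Fer2 share of higher genes was close to that of all genes. The median log2 change was -1.08 for Rhodanese and -1.98 for FKBP_C, against -0.19 over all tested genes. Fer2 had no member between -1.93 and -0.69, and its median of -1.31 falls in that gap. Without severe replicate 1, 9 Rhodanese genes were lower and 2 higher, 14 FKBP_C genes lower and 4 higher, and 9 Fer2 genes lower and 5 higher. The labels were chosen for low values in moderate against these same control libraries, so the shares lower are not independent of that choice. Whether the families differ from other genes was not tested.

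**Figure D2:**
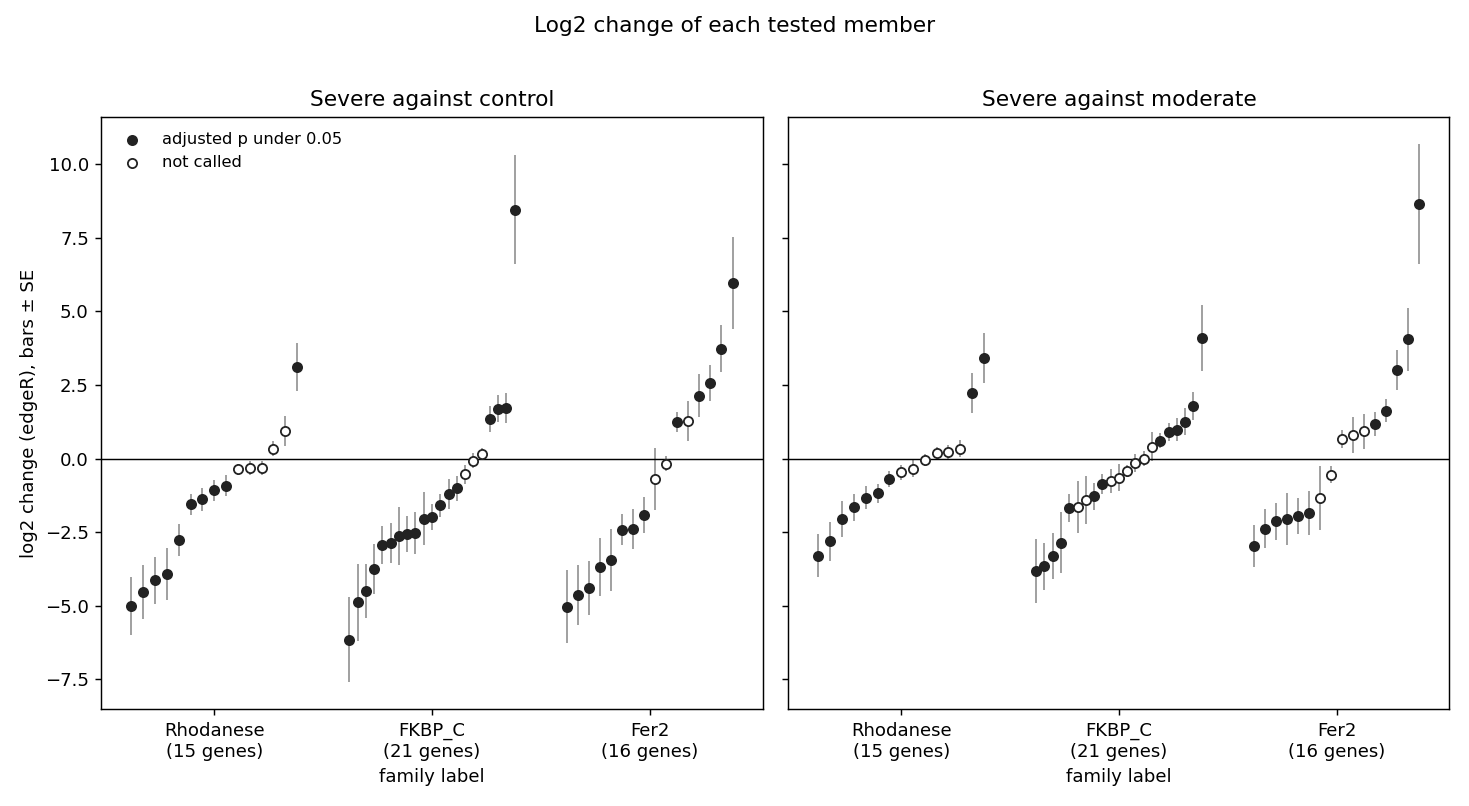
Points are the log2 changes of the tested members from edgeR, sorted within each label. Bars are 1 SE worked back from the test's p-value, and filled points passed the adjusted threshold of 0.05. Against control (left) the 3 labels range from -6.15 to 8.45, and against moderate (right) from -3.82 to 8.65, with called genes on both sides of 0 in every label.

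Among Rhodanese genes, both of the most abundant in control fell. Sobic.003G387800 (chromosome 3, 69928920 to 69934158) read 615, 481 and 534 CPM in control, 80.7, 98.5 and 113 in moderate, and 24.9, 41.8 and 25.5 in severe. It fell by 4.14 on the log2 scale (SE 0.80), with adjusted p = 2.1e-05 in edgeR's test. The 3 groups do not overlap, and control is highest and severe lowest. Sobic.002G271700 (chromosome 2, 65507967 to 65513202) gave a like picture at 569, 478 and 421 CPM in control, 99.2, 127 and 183 in moderate, and 22.3, 53.2 and 21.6 in severe, and it fell by 3.92 on the log2 scale (SE 0.88). Its 3 groups also stay apart, with severe replicate 2 well above the other severe libraries. A same-strand neighbour, Sobic.002G271800, overlaps it by 508 bases but held only 629 counts over the 9 libraries, against 41766 for the member.

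Larger falls were seen in 2 less abundant members. Sobic.001G407900 (chromosome 1, 69199763 to 69205422) read 183, 147 and 186 CPM in control, 31.7, 30.5 and 49.7 in moderate, and 2.86, 7.53 and 5.44 in severe, and fell by 5.01 on the log2 scale (SE 0.99). For Sobic.002G152700 (chromosome 2, 45418782 to 45421703) the values were 84.2, 62.3 and 80.5 CPM in control, 16.7, 35.99 and 44.2 in moderate, and 4.09, 2.99 and 2.78 in severe, and it fell by 4.53 on the log2 scale (SE 0.92). In both genes every severe library lies below every moderate one, and every moderate library below every control one. Sobic.001G308800, at 173, 158 and 154 CPM in control, 53.7, 47.6 and 60.7 in moderate, and 20.9, 28.4 and 22.2 in severe, fell by 2.76 on the log2 scale (SE 0.54) and kept the same order of groups. The other 4 Rhodanese genes that fell did so by less, with log2 changes of -1.56 to -0.92. Of these, Sobic.004G053000 was not called without severe replicate 3. Sobic.001G001300 averaged 19.1 ± 3.88 CPM in severe and 56.4 ± 4.51 in control (SD, n = 3 each), and Sobic.002G424100 60.8 ± 16.5 and 159 ± 8.72.

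One Rhodanese gene rose. Sobic.010G270300 (chromosome 10, 60467129 to 60469704) read 45.3, 43.98 and 23.8 CPM in control, 33.3, 26.2 and 31.5 in moderate, and 518, 323 and 128 in severe. It rose by 3.10 on the log2 scale (SE 0.81) with adjusted p = 0.000561 in edgeR's test, and the severe libraries spread over a wide range above all control libraries. Its raw counts in severe were 5441, 6059 and 2205, so severe replicate 1 is highest only after scaling. The neighbour 5822 bases away on the same strand, Sobic.010G270200, is also a Rhodanese gene and is the low one with 1, 20 and 47 counts in control, moderate and severe. The 5 Rhodanese genes not called against control were Sobic.001G538600, Sobic.004G046400, Sobic.004G263800, Sobic.008G162000 and Sobic.010G055600, with adjusted p of up to 0.247 in edgeR's test. Sobic.008G162000 averaged 55.4 ± 7.79 CPM in severe and 71.4 ± 2.62 in control, and Sobic.010G055600 16.6 ± 3.16 and 20.9 ± 2.002.

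FKBP_C genes split into a large group that fell and 4 that rose. The most abundant member in control, Sobic.001G120000 (chromosome 1, 9328291 to 9329503), read 245, 244 and 329 CPM in control, 164, 209.8 and 235 in moderate, and 9.05, 28.6 and 23.1 in severe, and fell by 3.75 on the log2 scale (SE 0.84) with adjusted p = 0.000103 in edgeR's test. Moderate lies just under control here after scaling, and the drop is between moderate and severe. Raw counts of 3941, 6236 and 7020 in moderate and 4634, 4803 and 6499 in control overlap. This gene overlaps Sobic.001G120100 on the other strand by 521 bases. That gene held 11468 counts, against 34162 for the member, and the strand setting of the counting is not stated, so reads in the overlap cannot be told apart. Sobic.002G061900 (chromosome 2, 6004366 to 6007941), at 140.4, 129 and 108 CPM in control, 67.4, 58.9 and 83.2 in moderate, and 3.904, 8.92 and 3.59 in severe, likewise fell mainly between moderate and severe, by 4.51 in all on the log2 scale (SE 0.92).

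The largest fall of the 3 families was that of Sobic.007G185100 (chromosome 7, 61825686 to 61828082), with 51.3, 44.6 and 47.97 CPM in control, 7.88, 10.6 and 10.1 in moderate, and 0, 1.55 and 0.289 in severe. It fell by 6.15 on the log2 scale (SE 1.45), with a log2 change of -8.08 without severe replicate 2, and severe replicate 1 had 0 counts. Sobic.004G082200, at 13.5, 10.96 and 14.7 CPM in control, 3.69, 3.195 and 2.67 in moderate, and 0, 1.07 and 0.116 in severe, fell by 4.89 on the log2 scale (SE 1.32), with a log2 change of -7.43 without severe replicate 2. The severe values of both genes come from 34 and 22 counts over the 3 libraries, so these 2 log2 changes are imprecise while their direction holds in 3 of 3 severe libraries. In the next 3 members that fell, the severe libraries overlapped with moderate or lay above it. Sobic.004G234200 (chromosome 4, 58252479 to 58255024) read 192, 139.7 and 163 CPM in control, 16.1, 26.3 and 29.4 in moderate, and 28.1, 15.8 and 20.5 in severe, and fell by 2.94 on the log2 scale (SE 0.65). Sobic.010G219500 (chromosome 10, 56174464 to 56175971) read 120.4, 115 and 135 CPM in control, 16.6, 15.4 and 17.9 in moderate, and 34.6, 36.5 and 22.7 in severe, and fell by 1.98 on the log2 scale (SE 0.45). For Sobic.007G143700 the values were 65.6, 56.7 and 53.9 CPM in control, 12.1, 12.2 and 14.2 in moderate, and 18.4, 24.5 and 15.9 in severe, and it fell by 1.58 on the log2 scale (SE 0.39). In the last pair the moderate libraries are the lowest of the 3 groups after scaling, although their raw counts overlap with severe.

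The other 7 FKBP_C genes that fell had log2 changes of -2.87 to -1.01. Sobic.004G013400, at 18.4, 15.2 and 20.4 CPM in control, 2.697, 1.92 and 2.44 in moderate, and 1.905, 5.77 and 1.56 in severe, was already low in moderate, and its log2 change was -3.39 without severe replicate 2. Sobic.006G095400, at 48.2, 52.3 and 55.4 CPM in control, 24.3, 25.6 and 28.6 in moderate, and 0.381, 15.1 and 9.32 in severe, changed by -2.63 on the log2 scale, or by -3.38 without severe replicate 2. Sobic.001G360900, Sobic.002G155200 and Sobic.002G255400, with adjusted p of 0.0251, 0.0354 and 0.0323 in edgeR's test, are the weakest calls, and each was lost in at least 6 of the 9 fits that left out 1 library. All 3 were lost without moderate replicate 1, 2 or 3 and without control replicate 2, and at least 1 of them without control replicate 1 or 3 or severe replicate 2 or 3.

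Among the FKBP_C genes that rose, 1 was almost silent in control. Sobic.010G134700 (chromosome 10, 19878437 to 19882014) read 0.529, 0.152 and 0.101 CPM in control, 10.4, 4.88 and 1.204 in moderate, and 106, 69.8 and 102 in severe, from 15 counts over the control, 431 over the moderate and 4179 over the severe libraries. It rose by 8.45 on the log2 scale (SE 1.86) with adjusted p = 8.44e-05 in edgeR's test, with a log2 change of 9.43 without control replicate 1, which held 10 of the 15 counts. The 3 groups do not overlap, with control lowest and severe highest. The other 3 were abundant in every soil. Sobic.004G306200 (chromosome 4, 64451754 to 64453755) read 109, 108 and 90.5 CPM in control, 152, 117 and 151 in moderate, and 514, 288 and 194 in severe, and rose by 1.70 on the log2 scale (SE 0.51). Sobic.007G197200 (chromosome 7, 62874860 to 62878738) read 98.7, 92.7 and 84.2 CPM in control, 86.04, 84.3 and 87.1 in moderate, and 436, 226 and 224 in severe, and rose by 1.69 on the log2 scale (SE 0.46). In both, severe replicate 1 is the highest library and all severe libraries lie above all others. Sobic.009G162200 averaged 106 ± 49.96 CPM in severe and 41.4 ± 0.699 in control, a rise of 1.35 (SE 0.44) on the log2 scale. The 3 FKBP_C genes not called were Sobic.003G400800, Sobic.004G147800 and Sobic.005G034300. Of these, Sobic.004G147800 averaged 26.3 ± 7.48 CPM in severe and 27.6 ± 1.99 in control.

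In Fer2, the 3 genes that led the label in control all fell. Sobic.007G004600, Sobic.007G004700 and Sobic.007G004800 lie close together on the plus strand of chromosome 7, between 432240 and 438347, with 1 other gene between the second and the third. Sobic.007G004800 read 1343, 996 and 753 CPM in control, 36.8, 40.7 and 62.7 in moderate, and 69.7, 148 and 24.01 in severe. Sobic.007G004600 read 714, 599.9 and 783 CPM in control, 94.96, 112 and 122 in moderate, and 14.3, 50.2 and 20.3 in severe. For Sobic.007G004700 the levels were 338, 271 and 272 CPM in control, 24.5, 35.4 and 37.3 in moderate, and 4.09, 19.7 and 3.01 in severe. All moderate and severe libraries lie far below all control libraries in each of the 3 genes. In the order given, their log2 changes in severe were -3.68 (SE 0.99), -4.63 (SE 1.01) and -5.03 (SE 1.23), with adjusted p = 0.000797, 7.5e-05 and 0.000283 in edgeR's test. Severe replicate 2 was the highest severe library in all 3, and without it the log2 changes were -4.47, -5.34 and -6.38. The 3 genes took 69.8 to 74.8% of all Fer2 counts in control, 13.6 to 25.0% in moderate and 3.18 to 11.2% in severe libraries. Only 73 bases part Sobic.007G004600 from Sobic.007G004700, and whether reads or near-identical sequence are shared between them was not tested, since no sequence was used here.

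Of the other 5 Fer2 genes that fell, 3 were abundant. Sobic.001G147400 (chromosome 1, 11837213 to 11837662), a gene of 450 bases, read 86.7, 71.1 and 79.7 CPM in control, 18.7, 23.1 and 23.1 in moderate, and 17.2, 17.2 and 10.01 in severe, and fell by 2.42 on the log2 scale (SE 0.53). Sobic.001G134700 (chromosome 1, 10636495 to 10639819) read 116, 106 and 108 CPM in control, 35.02, 42.5 and 44.8 in moderate, and 3.05, 8.92 and 3.53 in severe, and fell by 4.40 on the log2 scale (SE 0.92), with a log2 change of -5.06 without severe replicate 2. Sobic.002G305700 (chromosome 2, 68071432 to 68073276) read 131, 135 and 187 CPM in control, 101, 128 and 148 in moderate, and 15.5, 19.97 and 50.6 in severe, and fell by 2.40 on the log2 scale (SE 0.67), with a log2 change of -3.05 without severe replicate 3. The 3 groups of the first 2 genes stay apart, with control highest, although the severe libraries of Sobic.001G147400 did not differ from moderate past the threshold (adjusted p = 0.0754 in edgeR's test). In Sobic.002G305700 moderate and control overlap. The low genes Sobic.002G213900 and Sobic.006G069000 averaged 1.25 ± 0.767 and 0.2195 ± 0.214 CPM in severe, against 4.904 ± 0.629 and 2.72 ± 1.16 in control, and the log2 change of Sobic.006G069000 was -3.46, or -4.27 without severe replicate 2.

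The 5 Fer2 genes that rose included the longest of the label. Sobic.001G325200 (chromosome 1, 61234635 to 61247817), with 13183 bases, read 43.8, 45.9 and 38.3 CPM in control, 80.7, 62.4 and 67.7 in moderate, and 847, 531 and 318 in severe. It rose by 3.73 on the log2 scale (SE 0.80), with adjusted p = 6.15e-05 in edgeR's test, and the 3 groups do not overlap. Sobic.001G062600 (chromosome 1, 4675178 to 4682162) read 3.65, 1.52 and 0.404 CPM in control, 0.539, 0.135 and 0.201 in moderate, and 241, 60.9 and 46.9 in severe. It rose by 5.96 on the log2 scale (SE 1.56), with a log2 change of 4.85 without severe replicate 1 and 6.88 without control replicate 1. Severe replicate 1 is several times the other severe libraries in this gene, yet all 3 lie far above every other library. Sobic.001G022900 (chromosome 1, 1839741 to 1842448) read 64.1, 68.8 and 60.6 CPM in control, 221, 137 and 153 in moderate, and 538, 288 and 314 in severe, with control lowest, severe highest and no overlap, and rose by 2.56 on the log2 scale (SE 0.60).

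Sobic.001G062300, at 154, 145 and 46.6 CPM in control, 425, 239 and 136 in moderate, and 660.4, 524 and 339 in severe, rose by 2.14 on the log2 scale (SE 0.73). Sobic.010G073100, at 15.1, 13.3 and 13.2 CPM in control, 10.4, 9.69 and 11.7 in moderate, and 37.6, 26.9 and 33.8 in severe, rose by 1.24 on the log2 scale (SE 0.33). Sobic.001G062300, Sobic.001G062500 and Sobic.001G062600 lie between 4620324 and 4682162 of chromosome 1 on the plus strand but differed from each other. Sobic.001G062300 was abundant in all soils, Sobic.001G062500 stayed at or under 3.07 CPM in every library, and Sobic.001G062600 was high in severe alone. The 3 Fer2 genes not called against control were Sobic.001G062500, Sobic.009G154700 and Sobic.009G225600. In Sobic.009G225600, which averaged 103 ± 35.7 CPM in severe and 116 ± 13.3 in control, the spread among severe libraries exceeded the difference of the means. Genes of the label that rose spanned 2708 to 13183 bases, with a median of 6985, and those that fell 450 to 12292 bases, with a median of 1903. The table's gene length is the genomic span with introns, so this is no measure of protein size.

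**Figure D3:**
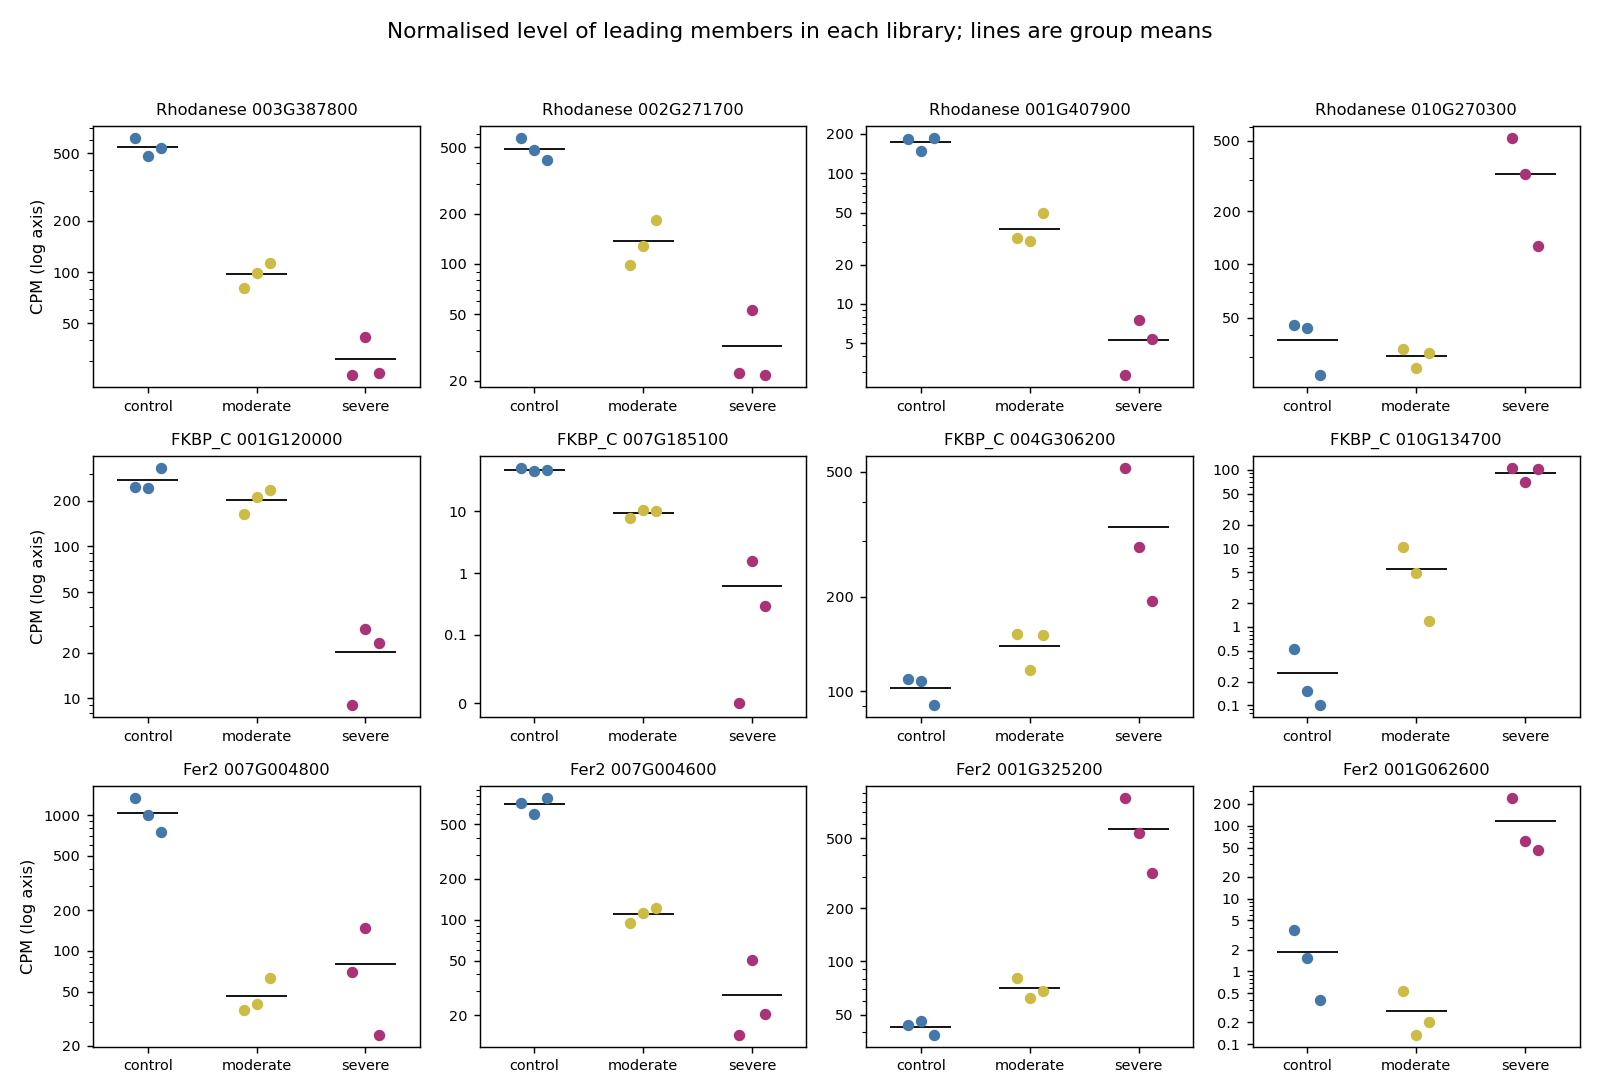
Points are normalised levels (CPM, log axis, linear under 0.1 CPM for Sobic.007G185100 so that its count of 0 shows) of 12 members in each of the 9 libraries, 4 per label, and lines are group means. Axes differ between panels. Genes that fell in severe stand left and genes that rose stand right in each row, such as Sobic.010G134700, which lay between 69.8 and 106 CPM in severe and between 0.101 and 0.529 CPM in control.

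Severe against moderate asked what differed between 3‰ and 5‰ salt, and is also the test of whether the severe effect differs from the moderate one, since both use the same controls. Of 15 Rhodanese genes 7 fell and 2 rose, of 21 FKBP_C genes 7 fell and 6 rose, and of 16 Fer2 genes 6 fell and 5 rose, while 33.6% of all tested genes were lower and 29.6% higher. The FKBP_C and Fer2 shares are close to those of all genes. Without severe replicate 1 the counts were 8 and 2, 9 and 6, and 7 and 5. With total counts as the only scaling, which puts the median of all tested genes at -0.978 in place of -0.203, 10 Rhodanese genes were lower and 2 higher, 12 FKBP_C genes lower and 2 higher, and 8 Fer2 genes lower and 4 higher. With that scaling the median of all tested genes was -0.485 in severe against control and 0.492 in moderate against control, and the members lower and higher in severe against control were 9 and 1, 13 and 4, and 9 and 5.

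All 7 Rhodanese genes lower in severe than in moderate were also lower in severe than in control, with log2 changes against moderate from -3.30 for Sobic.002G152700 to -0.70 for Sobic.001G001300. Of the 2 that were higher, Sobic.010G270300 changed by 3.41 (SE 0.85). The other, Sobic.004G046400, is a low gene with 0.847, 0.761 and 0.556 CPM in control, 0.332, 0.336 and 0.201 in moderate, and 1.05, 1.98 and 1.04 in severe, and it overlaps by 663 bases a gene on the other strand, Sobic.004G046500, with 18113 counts against its own 132. Among FKBP_C genes, Sobic.007G185100, Sobic.002G061900 and Sobic.001G120000 had log2 changes of -3.82, -3.66 and -3.32, the first -5.74 without severe replicate 2. Sobic.004G082200 fell by 2.86 on the log2 scale (SE 1.03), with a log2 change of -5.40 without severe replicate 2. Sobic.010G134700 rose by 4.08 on the log2 scale (SE 1.12), with a log2 change of 4.90 without moderate replicate 1, and Sobic.007G197200 and Sobic.004G306200 rose by 1.78 and 1.25. Sobic.010G219500 was higher in severe than in moderate by 0.91 (SE 0.30) while lower than control, and the change of Sobic.007G143700, 0.61, had the opposite sign with total-count scaling (-0.19). The call of Sobic.007G143700 was also lost without severe replicate 2 or any 1 moderate or control library, that of Sobic.009G162200 without severe replicate 3 or moderate replicate 2 or 3, and that of Sobic.005G034300 without moderate replicate 3.

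In Fer2, Sobic.001G062600 rose by 8.65 on the log2 scale (SE 2.03) between moderate and severe, with adjusted p = 0.000226 in edgeR's test, with a log2 change of 7.55 without severe replicate 1 and 9.34 without moderate replicate 1. Its 3 moderate libraries hold 23 counts in all, against 4481 in severe. Sobic.009G154700 (chromosome 9, 51138777 to 51140425) read 55.8, 30.5 and 136 CPM in control, 18.9, 9.05 and 4.88 in moderate, and 141, 157 and 244 in severe, and rose by 4.05 on the log2 scale (SE 1.07), with a log2 change of 4.68 without moderate replicate 1. Moderate is lowest and severe highest in that gene, with no overlap. Sobic.001G325200 rose by 3.01, Sobic.010G073100 by 1.63 and Sobic.001G022900 by 1.16. On the lower side, Sobic.001G134700 fell by 2.97 on the log2 scale (SE 0.71), with a log2 change of -3.63 without severe replicate 2, and Sobic.002G305700 changed by -2.13, or -2.79 without severe replicate 3. Of the chromosome 7 genes, Sobic.007G004600 and Sobic.007G004700 fell further, with log2 changes of -1.95 and -1.85, or -2.67 and -3.20 without severe replicate 2, and the second call was lost without severe replicate 1 or 3 or moderate replicate 2 or 3. Sobic.007G004800 did not pass, with a log2 change of 0.79 (SE 0.61) and adjusted p = 0.247 in edgeR's test. Sobic.006G069000 fell by 2.05, with a log2 change of -2.86 without severe replicate 2, a call lost without control replicate 1, moderate replicate 1 or 3 or severe replicate 3.

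Moderate stress against control is described without a test, since this contrast brought the labels to notice. The counts past the threshold come from the values that the choice used, so they restate it and nothing is read from them. Of 15 Rhodanese genes 7 were lower and 1 higher, of 21 FKBP_C genes 6 lower and 2 higher, and of 16 Fer2 genes 6 lower and 1 higher, beside 8.17% of all tested genes lower and 8.94% higher. With total-count scaling these were 4 and 1, 5 and 3, and 5 and 3. The largest differences were those of Sobic.007G004800 in Fer2 (46.7 ± 13.96 CPM in moderate and 1030.3 ± 297 in control, SD, n = 3 each), of Sobic.010G134700 in FKBP_C (5.48 ± 4.61 and 0.261 ± 0.234) and of Sobic.003G387800 in Rhodanese (97.3 ± 16.03 and 543 ± 67.5). Log2 changes of these 3 genes were -4.46, 4.37 and -2.48. The genes counted as higher in moderate were Sobic.001G538600, Sobic.003G400800, Sobic.010G134700 and Sobic.001G022900. Of the 23 members counted in either direction, 10 dropped under the threshold when 1 moderate or control library was left out. Sobic.001G538600 and Sobic.003G400800 did so without any 1 of these 6 libraries, and Sobic.001G022900 without moderate replicate 1 or any 1 control library. The FKBP_C change of Sobic.010G134700 was 3.55 without moderate replicate 1 and 5.36 without control replicate 1.

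Set in the order control, moderate and severe, the 3 soils gave several patterns among the 52 members. In 18 the libraries ran without overlap from control through moderate down to severe, 6 Rhodanese, 7 FKBP_C and 5 Fer2 genes, beside 12.0% of all tested genes. The reverse order held in 5, namely Sobic.004G306200, Sobic.009G162200 and Sobic.010G134700 of FKBP_C and Sobic.001G022900 and Sobic.001G325200 of Fer2, beside 7.83%. Severe lay above and moderate below control in 3 genes (5.77%), beside 4.41%, and the opposite held in 3 (5.77%), beside 6.62%, so both shares are near those of all genes. Moderate lay below both other groups in 6 genes, beside 7.48%, among them Sobic.010G219500 and Sobic.009G154700. It lay above both in 5 genes, beside 12.2%, among them Sobic.001G538600 at 12.8, 14.00 and 15.01 CPM in control, 27.4, 23.2 and 22.5 in moderate, and 21.4, 14.1 and 17.3 in severe, and Sobic.003G400800 at 52.5, 54.3 and 45.9 CPM in control, 77.1, 70.6 and 82.8 in moderate, and 57.04, 57.4 and 57.9 in severe. Since the labels were noticed for low values in moderate, these counts are no independent measure of the moderate step. All patterns use the scaled CPM, with scaling factors of 1.33 to 1.41 in moderate and 0.512 to 0.973 in severe. Raw counts of Sobic.010G219500 were 401, 459 and 534 in moderate and 363, 684 and 393 in severe, which overlap. Those of Sobic.009G154700 were 455, 269 and 146 and 1481, 2943 and 4214, which do not. How many patterns hold without that scaling was not counted.

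The leading member by group mean differed between control and severe in each family, although not in every Fer2 library. Levels of different genes are compared here as FPKM, fragments scaled by gene length and library size, with the length taken as genomic span. In Rhodanese, Sobic.003G387800 led in control at 101 ± 12.9 FPKM, with 25.5% of the label's summed FPKM, followed by Sobic.002G271700 at 90.6 ± 13.7. In moderate, Sobic.002G271700 at 25.2 ± 7.72 FPKM and Sobic.001G538600 at 24.4 ± 2.84 led within their spread of each other. In severe, Sobic.010G270300 led at 136 ± 92.3 FPKM with 59.5%, and the next, Sobic.001G538600, was at 19.2 ± 5.61.

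For FKBP_C, Sobic.001G120000 led at 218 ± 40.4 FPKM in control and 161 ± 27.7 in moderate, with 35.1% and 40.5% of the label. In severe it stood at 16.9 ± 7.74 FPKM, and Sobic.004G306200 led at 178 ± 105 with 40.4%. The order below it, Sobic.007G197200 at 81.4 ± 41.8 and Sobic.009G162200 at 52.8 ± 20.9, is within the spread of the severe libraries. For Fer2, Sobic.007G004800 alone held 51.6% in control at 1064 ± 306 FPKM, and the 3 chromosome 7 genes together 78.7%. In moderate 4 genes stood between 48.1 and 65.7 FPKM, namely Sobic.002G305700, Sobic.001G022900, Sobic.007G004600 and Sobic.007G004800, with no clear leader. In severe, Sobic.001G022900 at 149 ± 68.8, Sobic.009G154700 at 112 ± 25.8 and Sobic.007G004800 at 90.05 ± 67.8 FPKM lay within their spread of each other. Sobic.001G022900 was first in severe replicate 1 with 28.7%, Sobic.007G004800 in severe replicate 2 with 25.2% and Sobic.009G154700 in severe replicate 3 with 30.6%.

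**Figure D4:**
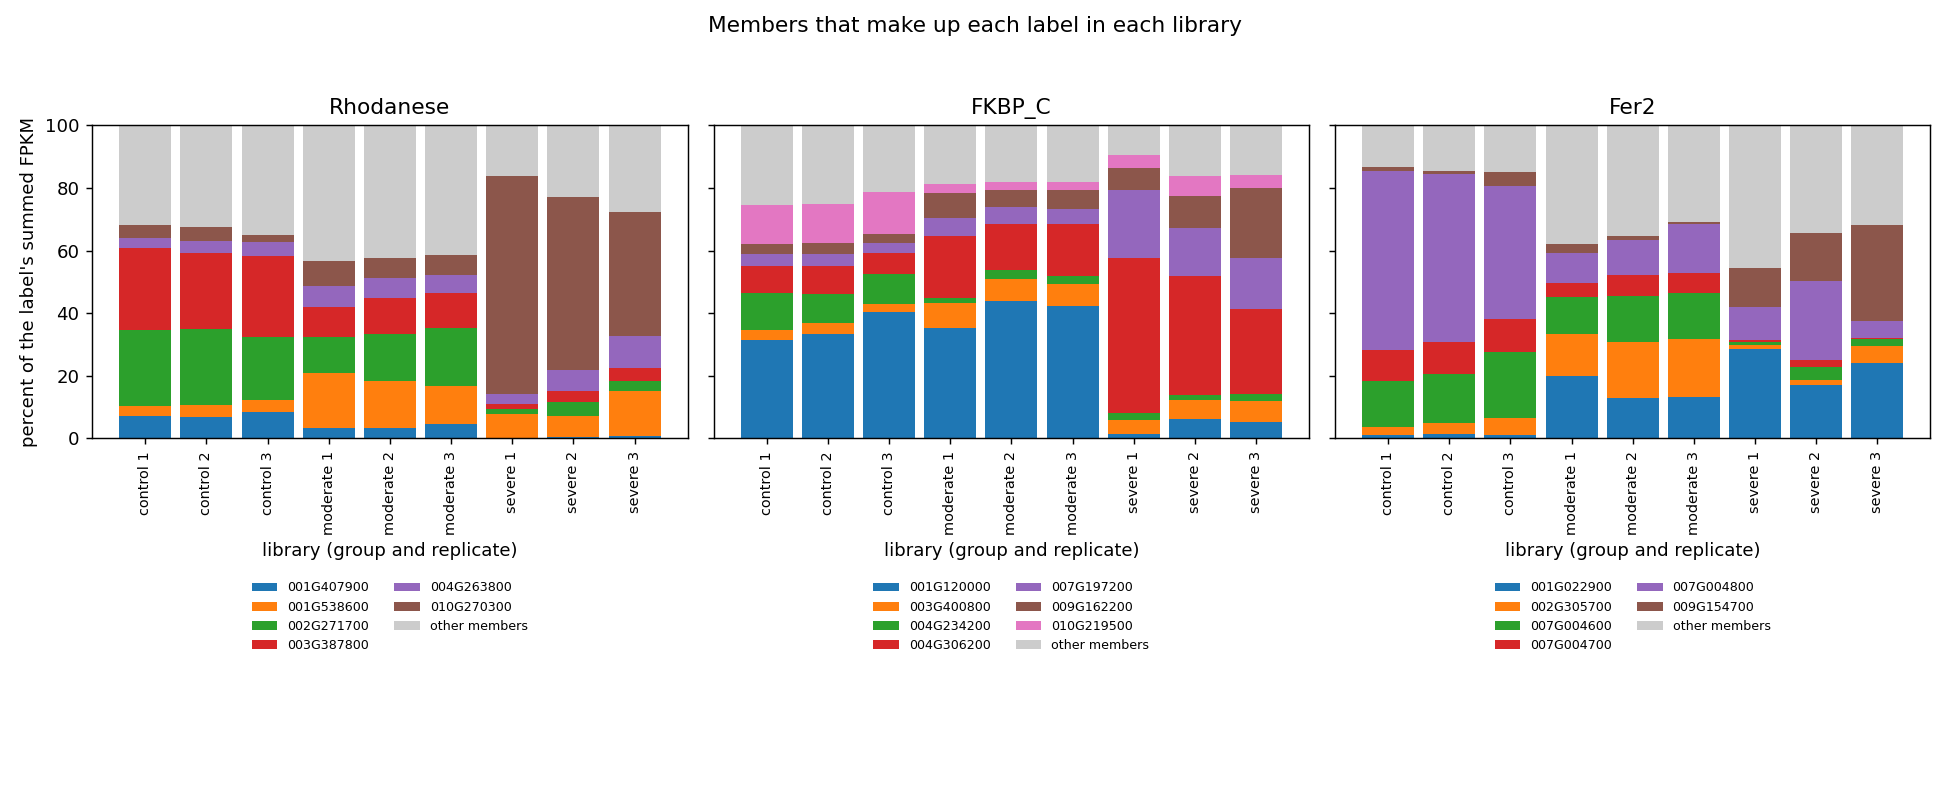
Bars give, for each of the 9 libraries, the percent of each label's summed FPKM that came from its leading members, those among the first 3 of any group, with all other members in grey. In Rhodanese, Sobic.010G270300 makes up 59.5% of the severe mean, and in Fer2, Sobic.007G004800 makes up 14.2% of the severe mean and 51.6% of the control mean.

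A pair of related families was counted beside them by their labels. Cyclophilins (Pro_isomerase) are the other large class of proline isomerases. Of 29 tested, 7 fell (24.1%) and 6 rose (20.7%) in severe against control, with a median log2 change of 0.09. Against moderate 7 fell and 6 rose, and against control in moderate 6 were lower and 0 higher. NAD_binding_1 is a domain of oxidoreductases that include ferredoxin-NADP reductase and nitrate reductase. It was added after the labels had been read. Of its 14 tested genes 6 fell and 6 rose in severe against control (42.9% each). Against moderate 5 fell (35.7%) and 6 rose (42.9%), and against control in moderate 1 was lower (7.14%) and 2 higher (14.3%). In severe against control FKBP_C had 14 lower and 4 higher of 21 and Fer2 8 and 5 of 16. Against moderate FKBP_C had 7 and 6 of 21 (33.3% and 28.6%) and Fer2 6 and 5 of 16. The families differ in the number of genes tested, so equal counts are unlike shares. Over all tested genes 34.9% were lower and 31.6% higher in severe against control, and 33.6% and 29.6% against moderate. In moderate against control these were 8.17% and 8.94%. The difference between the families was not tested.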

How the data were processed

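Total RNA of leaves was sequenced. Strandedness, read counter and genome build were not given in the sources used here. Reads were aligned with HISAT2 2.0.5, and DESeq2 1.20.0 was used, per the submitters' processing notes. The deposited table held whole-number read counts per gene, not normalized, and FPKM values computed by the authors, for 9 libraries. It also held the authors' log2 fold changes and p-values of 3 comparisons, which are quoted only as the authors' deposited table. The gene length in the table equals the genomic span for 56 of 56 members, so FPKM is per base of span, introns included.

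Counts were fitted with edgeR 4.0.16 (R 4.3.3, limma 3.58.1) after its filter on low counts and TMM scaling, with 1 mean per group over all 9 libraries, the quasi-likelihood test (2-sided) and Benjamini-Hochberg adjustment over 22356 genes at a threshold of 0.05. The code was tested on simulated data. Replicates are labelled as biological. No pair of libraries agreed within sampling noise. Alternatives were DESeq2 1.42.0, its size factors, total-count scaling, no filter, only the 6 libraries compared, limma on log2(FPKM + 1), a replicate block and leaving out each library.

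Members and lists were chosen with earlier results of these data known. Genes were named by this rule within each label: the 3 most abundant by mean FPKM, up to 4 with the largest fall and 3 with the largest rise in severe against control and against moderate (mean of at least 5 CPM), and 3 by rank in moderate against control. Other genes are named to account for every call. Lists of ferredoxin partners, photosystem subunits, light-harvesting proteins, parvulins, thioredoxins and markers of root, senescing leaf and leaf matched no label or name, and no sequence was used.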

Additional observations from a re-analysis of the deposited data

Results flagged for a closer look

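In 6 members all severe libraries lay on one side of all control libraries and all moderate libraries on the other, and the difference between severe and moderate passed edgeR's quasi-likelihood test over all tested genes. None of the 6 passed the threshold against control in both soils. In severe against control Sobic.001G360900, Sobic.002G213900 and Sobic.010G073100 passed, and in moderate against control Sobic.009G154700. The labels were chosen on moderate against control, so that last call is a description only. It was lost without moderate replicate 2 or 3 or control replicate 3. In 3 of the 6 severe lay above control and moderate below it (5.77% of the tested members), beside 4.38% of all tested genes by the same 2 criteria. These were Sobic.009G154700 (Fer2) with a log2 change of 4.05 in severe against moderate, Sobic.010G073100 (Fer2) with 1.63, and the low Rhodanese gene Sobic.004G046400 with 2.22. The side of control on which a group lies depends on the scaling between libraries. For Sobic.010G073100, raw counts of 251, 288 and 351 in moderate and 286, 262 and 262 in control overlap. In the other 3 severe lay below control and moderate above it (5.77%), beside 6.57% of all tested genes. Both shares are near those of all genes. These were Sobic.002G213900 (Fer2) with -2.38, and the FKBP_C genes Sobic.001G360900 with -1.29 and Sobic.005G034300 with -0.87. The severe against moderate call of Sobic.005G034300 was lost without moderate replicate 3. Sobic.004G046400 overlaps by 663 bases a gene with 18113 counts against its own 132, and the part of that overlap in its values was not tested.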

How the results depend on the processing

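Of the counts and medians recomputed under the alternatives, 244 stayed within 1.5 times the count reported, or for medians within 1 SD between replicates, and 53 moved. Within that limit, FKBP_C genes lower in severe against control numbered 10 with only the 6 libraries compared, beside 14 reported, and Rhodanese genes lower in severe against moderate 10 with total-count scaling, beside 7. Of the values of single called genes, 1430 kept direction and call, 121 lost the call and 1 reversed. The reversed one was Sobic.007G143700 in severe against moderate, -0.19 with total-count scaling (adjusted p = 0.597 by edgeR). In severe against control, Rhodanese genes higher numbered 3 with no filter, 2 with DESeq2 and 2 with limma on log2(FPKM + 1). In severe against moderate, total-count scaling gave 12 FKBP_C genes lower and 2 higher. In moderate against control, Rhodanese genes lower numbered 4 with total-count scaling and 12 with only the 6 libraries compared, and those higher 0 with DESeq2's size factors. FKBP_C genes lower there numbered 10 with only the 6 libraries, and those higher 1 with DESeq2's size factors, 1 with no filter, 1 with limma and 4 with only the 6 libraries. Fer2 genes higher there numbered 3 with total-count scaling and 2 with only the 6 libraries. With log2(FPKM + 0.1) the median log2 change in severe against control was -1.90 for FKBP_C and -0.79 for Fer2, and in moderate against control -0.86 for Rhodanese, -0.61 for FKBP_C and -0.98 for Fer2. These medians moved relative to those with log2(FPKM + 1), which are not given here, and not relative to edgeR's. In the same order, edgeR's medians were -1.98 and -1.31, and -0.86, -0.64 and -1.12. The cause of these moves was not tested.

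Leaving out 1 library at a time gave, for genes lower and then higher in severe against control, 8 to 10 and 1 to 2 Rhodanese, 11 to 14 and 4 to 4 FKBP_C, and 8 to 9 and 5 to 6 Fer2 genes. In severe against moderate the ranges were 7 to 8 and 2 to 4, 6 to 10 and 4 to 6, and 4 to 7 and 5 to 7. In moderate against control they were 4 to 8 and 0 to 1, 5 to 9 and 1 to 2, and 3 to 9 and 0 to 2.

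Same-numbered replicates correlated at -0.028 to 0.255 in their deviations from the group means, not above 0.1 in every pair, so the numbers were not taken as pairs. The values were 0.102 to 0.255 for replicates 1 and 3 and -0.028 to 0.072 for replicate 2. Replicates of unlike number correlated at -0.269 to 0.137. Whether replicates 1 and 3 share a source of variation across soils was not tested. With the replicate block, Rhodanese genes lower and higher numbered 9 and 1 in severe against control, FKBP_C 14 and 4 and Fer2 8 and 5, and in severe against moderate 7 and 2, 7 and 5, and 5 and 6. In moderate against control the block gave 6 and 0, 6 and 1, and 7 and 2. Genes with few severe counts, such as Sobic.007G185100 and Sobic.004G082200, are limited by depth.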

Other observations

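The severe replicates differed in the members that changed. Of the 31 members lower in severe than in control, severe replicate 2 was the highest severe library in 24 (77.4%), against 48.8% of all tested genes called lower. Of the 10 members higher in severe, severe replicate 1 was the highest in 9 (90.0%), against 65.1% of all tested genes called higher. No test was made of these shares. The ranks use the scaled CPM, in which severe replicate 1 had the lowest scaling factor of all libraries, 0.512. As raw counts, Sobic.010G134700 had 1116, 1308 and 1755 in severe replicates 1 to 3, so replicate 1 was not the highest. Sobic.001G062600 had 2531, 1140 and 810, so there replicate 1 was the highest. How many ranks hold without that scaling was not counted.

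Across the 15 tested Rhodanese genes, the level in control and the log2 change of severe over moderate had a Spearman rho of -0.718. It was -0.031 over the 21 FKBP_C genes, -0.221 over the 16 Fer2 genes and -0.048 over all 22356 tested genes. These are correlations across genes within the same libraries, which are not independent replicates, and are given as a description.

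In the authors' deposited table, at an adjusted p under 0.05, 8 Rhodanese genes were lower and 2 higher in severe against control, 13 FKBP_C genes lower and 4 higher, and 8 Fer2 genes lower and 6 higher. For severe against moderate the authors' deposited table gave 6 and 2, 7 and 5, and 6 and 5, and for moderate against control 10 and 1, 10 and 3, and 9 and 3. Its log2 changes differed from those of edgeR by at most 0.229 among the 52 tested members.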
